A study of Mus musculus with 24 samples.

Results

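The enzymes that add, keep and remove DNA methylation were followed as 8 listed genes: Dnmt1, Dnmt3a, Dnmt3b, Dnmt3l, Uhrf1, Tet1, Tet2 and Tdg. They were chosen by name, and every probe set that the platform annotation gives to 1 of them alone was read on all arrays. 7 of the 8 genes had such a probe set, of 18193 genes with one in the whole data set, and together they had 19. All 3 probe sets of Tdg are also annotated to pseudogene copies of it, so Tdg is not analysed here. Of the 19 probe sets, 16 reached a log2 expression value of 5 on at least 3 of 24 arrays and entered the tests. Below that value a signal was not told from background. The other 3, which are 2 of Dnmt3a and 1 of Tet1, stayed under it.

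Stem cells of the early mouse embryo, strain 129/Sv, kept undifferentiated in culture, were profiled on Affymetrix MG 430 2.0 arrays, 1 sample per array. The groups differ at Hdh, now called Htt, the gene of huntingtin. The knock-out group has 6 arrays, labelled null at this gene. Each knock-in line has 3 arrays of heterozygous cells, whose shorter allele has 7 CAG repeats. Their longer allele has 16 in Q20 and 45 in Q50, where replicate 3 has 43, and the Q91 and Q111 lines have 85 and 111. The control group has 6 arrays with 7 repeats on both alleles. The labels give no drug and no Cre or other transgene, and the differentiation status of every group is undifferentiated. They call the arrays biological replicates without saying whether these were clones or parallel cultures, so a p-value measures only the spread between these arrays. A free-text field of the labels names the control and knock-out arrays the other way round from the titles, the group and the genotype, and the groups used here follow the titles. The sources used here do not say which part of Htt was removed. The Htt probe set 1425969_a_at averaged 7.21 in the knock-out, against 8.01 in control (log2, -0.80, SE 0.16, limma adjusted p = 0.00195). It was also called lower in Q91 (6.96) and Q111 (7.22), and in Q50 (7.40, differing by -0.61) and Q20 (7.54, differing by -0.47) it did not pass the test (adjusted p = 0.0544 and 0.0777). The knock-out differed from the mean of the lines by -0.07 (adjusted p = 0.719).

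DNA methylation in mammals sits mainly on cytosines that precede a guanine. Dnmt3a and Dnmt3b place new marks, helped in embryonic cells by the catalytically inactive cofactor Dnmt3l, and Dnmt1 copies marks onto the new strand after replication, brought there by Uhrf1. Tet1 and Tet2 oxidise methylcytosine, and the glycosylase Tdg cuts out the oxidised bases so that repair can restore an unmodified cytosine. In mouse embryonic stem cells the de novo enzymes are known to be low in the naive state and high in the primed state that follows implantation. The arrays measured RNA of these genes, not their protein and not the methylation of DNA.

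Start regions are printed for Dnmt3b, Dnmt3l and Tet2, because in lines Q20 and Q91 the RNA of Dnmt3b and Dnmt3l was called higher than control and that of Tet2 lower. They are RefSeq sequences of mouse build GRCm38.p6, 300 bases around the first listed transcript start, 5′ to 3′ on the strand of the gene, and capitals mark each CG pair, the letters that DNA methylation acts on. Which start these cells used was not measured.

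Dnmt3b, chr2:153649199-153649498, plus strand: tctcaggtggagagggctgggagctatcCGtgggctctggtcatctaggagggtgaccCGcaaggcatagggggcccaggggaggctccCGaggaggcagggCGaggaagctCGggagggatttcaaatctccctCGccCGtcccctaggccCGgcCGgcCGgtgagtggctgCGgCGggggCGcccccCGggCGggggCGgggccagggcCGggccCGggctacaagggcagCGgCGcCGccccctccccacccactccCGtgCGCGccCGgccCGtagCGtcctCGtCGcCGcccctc

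Dnmt3l, chr10:78042037-78042336, plus strand: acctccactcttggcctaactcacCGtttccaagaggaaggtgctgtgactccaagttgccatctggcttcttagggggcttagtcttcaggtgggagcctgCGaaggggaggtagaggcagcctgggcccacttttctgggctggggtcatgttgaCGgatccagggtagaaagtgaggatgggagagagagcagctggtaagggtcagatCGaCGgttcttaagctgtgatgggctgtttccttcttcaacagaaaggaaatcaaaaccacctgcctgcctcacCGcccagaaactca

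Tet2, chr3:133544341-133544640, minus strand: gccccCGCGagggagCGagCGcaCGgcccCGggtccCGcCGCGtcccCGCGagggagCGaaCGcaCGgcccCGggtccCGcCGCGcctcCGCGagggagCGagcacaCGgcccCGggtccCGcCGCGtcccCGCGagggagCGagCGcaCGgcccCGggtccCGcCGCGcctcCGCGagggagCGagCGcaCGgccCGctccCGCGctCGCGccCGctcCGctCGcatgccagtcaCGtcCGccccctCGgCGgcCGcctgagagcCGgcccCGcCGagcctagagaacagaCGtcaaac

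The Dnmt3b window holds 30 CG pairs, and 11.7% of the 32851 promoters in the table hold at least as many. The Dnmt3l window holds 6 (56.4% of promoters hold at least as many), below the median of 7, and its other 2 listed starts hold 4 and 3. The Tet2 window holds 57, a number reached by 0.152% of promoters. The letters GGGCGG, searched on both strands, were found in all 3 windows and in 35.7% of all promoters, which is a match of letters and not a measured site. All 8 listed genes matched the table, with 15 starts.

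**Figure D1:**
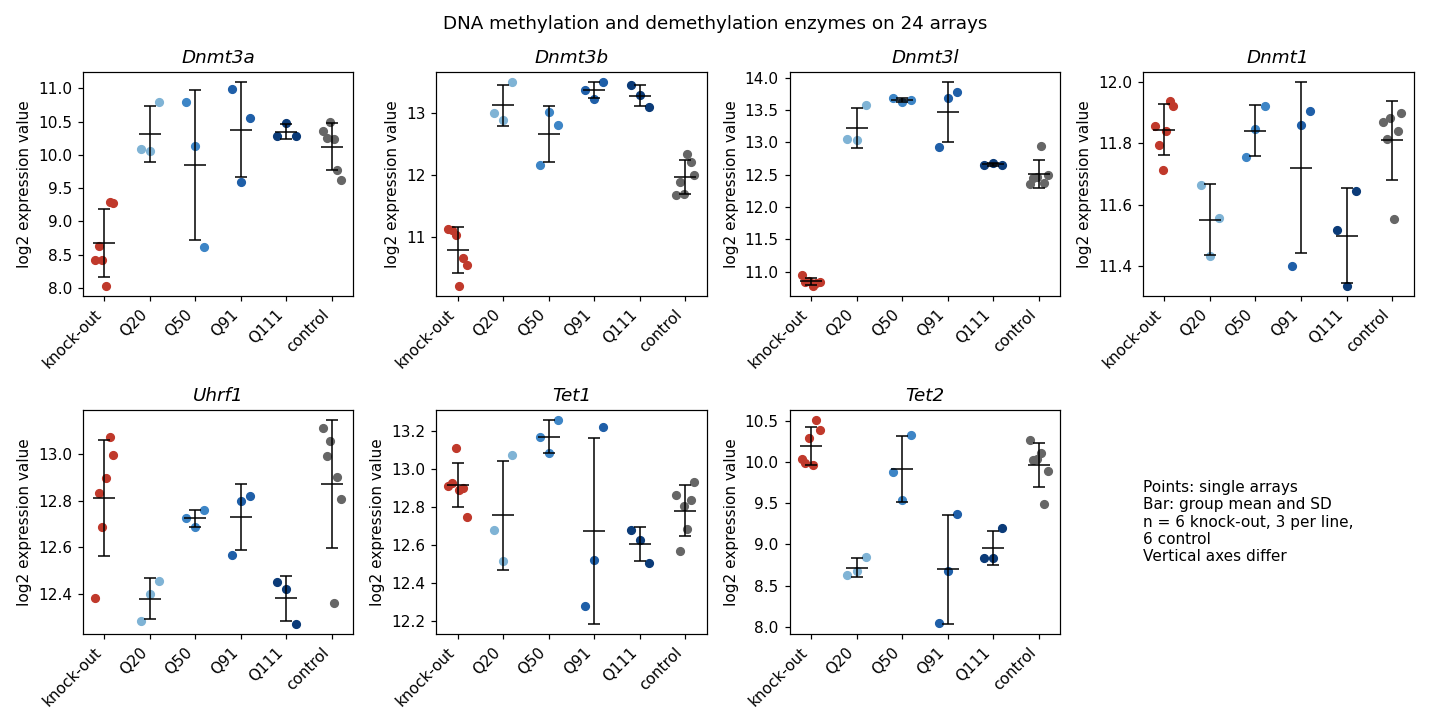
Log2 expression of the 7 genes on every array, 1 panel a gene, with 1 point per array and bars for the group mean and SD (6 knock-out arrays, 3 per knock-in line, 6 control arrays). Vertical axes differ between panels. Dnmt3b and Dnmt3l were lower on every knock-out array than on any other array, and Tet2 was lower on every Q20, Q91 and Q111 array than on any control array.

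In the knock-out, all 3 genes of the de novo group were lower than in control, by 1.18 to 1.66 on the log2 scale, and the other 4 genes did not pass the test. That is 0 of 7 genes higher and 3 of 7 lower, where 16.4% of the 9504 genes tested were called, 7.55% higher and 8.81% lower. Each comparison with control in what follows uses the same 6 control arrays.

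Dnmt3l, the cofactor, showed the tightest separation. Its log2 values on the 6 knock-out arrays had a lowest of 10.78, a median of 10.84 and a highest of 10.95, against 12.36, 12.45 and 12.94 on the 6 control arrays. Every knock-out array lay below every control array, and the knock-out arrays spread over 0.17 in all. The knock-out differed by -1.66 in log2 (SE 0.13, limma adjusted p = 3.67e-08), which is 31.6% of the control level.

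Dnmt3b is the de novo enzyme most used in the early epiblast. On the knock-out arrays its lowest, median and highest log2 values were 10.21, 10.85 and 11.13, against 11.68, 11.94 and 12.33 on the control arrays. The groups did not overlap here either. Over all replicates the knock-out differed by -1.18 (SE 0.17, limma adjusted p = 0.000195), or 44.1% of the control level. A second probe set, 1418351_a_at, differed by -1.31 and was also called.

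For Dnmt3a, the other de novo enzyme, the knock-out arrays gave 8.03, 8.53 and 9.30 as lowest, median and highest, against 9.62, 10.25 and 10.49 in control. No knock-out array reached a control array, but knock-out replicates 5 and 6, at 9.30 and 9.28, came close to control replicates 5 and 6, at 9.77 and 9.62. The difference was -1.44 (SE 0.31, limma adjusted p = 0.00358), or 36.7% of the control level. Probe set 1423064_at gave -1.38 and was called, and 1423063_at gave -0.62 and was not (adjusted p = 0.0715). With replicates 4 to 6 of knock-out and control alone the Dnmt3a difference was -1.01 (adjusted p = 0.258), and with replicates 1 to 3 alone that of Dnmt3b was -0.65 (adjusted p = 0.0777). Dnmt3l was called in both subsets.

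Cultured cells were measured in bulk, so fewer cells of a type and less RNA per cell cannot be told apart in any of these values.

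The knock-in lines went the other way for Dnmt3b. Its 3 log2 values were 12.99, 12.88 and 13.49 in Q20, 12.15, 13.01 and 12.80 in Q50, 13.37, 13.23 and 13.49 in Q91 and 13.45, 13.28 and 13.10 in Q111, against 11.68 to 12.33 in control. All arrays of Q20, Q91 and Q111 lay above every control array, and Q50 replicate 1 lay inside the control range. Dnmt3b was higher than control by 1.16 in Q20 (limma adjusted p = 0.00062), 1.40 in Q91 (0.000102) and 1.31 in Q111 (0.000173), each with an SE of 0.21. In Q50 the difference of 0.69 had an adjusted p of 0.0505 and an interval of 0.24 to 1.13 (95%), and its adjusted p lay below 0.05 when control replicate 4, control replicate 5 or Q50 replicate 1 was left out (0.0127 to 0.0498). Ordered by mean, the groups ran knock-out, control, Q50, Q20, Q111 and Q91, and the first pair were the only neighbours whose arrays did not overlap.

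Dnmt3l followed another order among the lines. Its values were 13.05, 13.03 and 13.58 in Q20, 13.68, 13.62 and 13.65 in Q50, 12.93, 13.68 and 13.78 in Q91 and 12.65, 12.69 and 12.64 in Q111, against 12.36 to 12.94 in control. The Q111 arrays sat inside the control range, the Q50 and Q20 arrays sat above it, and Q91 replicate 1 lay at its upper end. That upper end is control replicate 4 alone, at 12.94. The other control arrays read at most 12.49, below every knock-in array. Dnmt3l was higher than control by 0.71 in Q20 (limma adjusted p = 0.00233), 1.14 in Q50 (0.000384) and 0.95 in Q91 (0.000185), with an SE of 0.16. For Q111 the difference was 0.15, with an interval from -0.17 to 0.47 (adjusted p = 0.516). It was called in 0 of 9 fits that left out 1 Q111 or control array (differences of 0.12 to 0.24). From low to high the groups ran knock-out, control, Q111, Q20, Q91 and Q50, and the neighbours that did not overlap were knock-out and control, and Q111 and Q20.

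No line passed the test for Dnmt3a. The values were 10.10, 10.05 and 10.80 in Q20, 10.80, 10.14 and 8.61 in Q50, 10.99, 9.59 and 10.56 in Q91 and 10.29, 10.47 and 10.28 in Q111, against 9.62 to 10.49 in control. The lines straddled the control range, and Q50 replicate 3 was the lowest array outside the knock-out. Differences from control ran from -0.28 in Q50 to 0.25 in Q91 with an SE of 0.38, so a change of up to 1.04 in Q91 lay inside the interval. That Q50 array also had the largest gap between 3′ and 5′ probe sets of Actb, a measure of RNA integrity, at 1.54 in log2 where the other arrays had 0.745 to 1.03. Without it the Q50 difference was 0.34 (adjusted p = 0.633), and the part of RNA quality in the low value was not tested. On probe set 1423063_at the Q111 arrays, at 7.44 to 7.50, lay above every control array (6.15 to 7.24). The difference there, 0.65, was not called (limma adjusted p = 0.0906), and 1423064_at gave 0.13 in Q111.

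**Figure D2:**
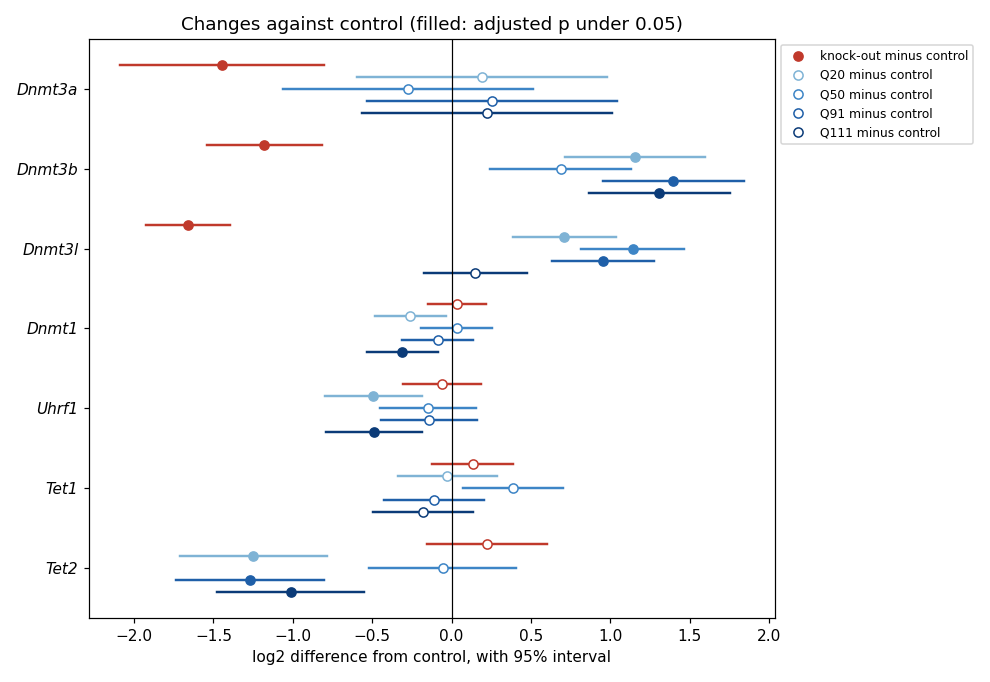
Log2 difference from control of each gene in the knock-out and the 4 knock-in lines, with 95% intervals from limma. Filled points passed an adjusted p of 0.05. The knock-out points of the 3 de novo genes lie left of 0 and the called line points of Dnmt3b and Dnmt3l lie right of it, while the called Tet2 and Uhrf1 points lie left of 0 in the lines.

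The maintenance pair changed less. Dnmt1 on the knock-out arrays had a lowest, median and highest log2 value of 11.71, 11.85 and 11.94, against 11.56, 11.86 and 11.90 in control, and Uhrf1 had 12.38, 12.87 and 13.07, against 12.36, 12.95 and 13.11. The ranges of knock-out and control overlapped almost fully for both genes. The differences were 0.03 for Dnmt1 (interval -0.15 to 0.22, limma adjusted p = 0.856) and -0.06 for Uhrf1 (-0.31 to 0.19, adjusted p = 0.799).

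Uhrf1, the protein that recruits Dnmt1 to half-methylated sites, was lower in the lines with the shortest and the longest tract. Its values were 12.29, 12.40 and 12.46 in Q20, 12.73, 12.69 and 12.76 in Q50, 12.57, 12.80 and 12.82 in Q91 and 12.45, 12.42 and 12.27 in Q111, against 12.36 to 13.11 in control. The Q20 and Q111 arrays lay below all control arrays but replicate 4, which at 12.36 stood apart from the other 5 (12.81 to 13.11). Uhrf1 differed by -0.49 in Q20 (SE 0.15, limma adjusted p = 0.0175) and in Q111 by the same -0.49 (0.0169), and it was not called in Q50 (-0.15) or Q91 (-0.14). Without control replicate 4 both differences were -0.59 (adjusted p = 0.00198 and 0.00182). The Q20 call was lost without Q20 replicate 1 (0.0867) or 2 (0.0509), and the Q111 call without Q111 replicate 3 (0.0696).

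Dnmt1, the maintenance enzyme itself, gave 11.66, 11.43 and 11.56 in Q20, 11.76, 11.85 and 11.92 in Q50, 11.40, 11.86 and 11.90 in Q91 and 11.52, 11.34 and 11.64 in Q111, against 11.56 to 11.90 in control. Every group overlapped its neighbours in the order of means. Q111 differed by -0.31 (SE 0.11, limma adjusted p = 0.0392), a call, and Q20 by -0.26 without passing the test (adjusted p = 0.0843). The Q111 call was lost in 13 of 18 alternative settings, with an adjusted p of up to 0.257. Its other 2 probe sets gave -0.36 and -0.40 in Q111 and were not called.

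Tet2, the oxidase that shows its pattern in the lines, did not pass the test in the knock-out. The knock-out arrays had a lowest, median and highest log2 value of 9.96, 10.16 and 10.51, against 9.49, 10.03 and 10.27 in control, ranges that overlapped. The difference was 0.22 with an interval from -0.15 to 0.60 (limma adjusted p = 0.463).

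In 3 of the 4 lines Tet2 was below control. Its values were 8.63, 8.67 and 8.85 in Q20, 9.88, 9.53 and 10.33 in Q50, 8.05, 8.67 and 9.37 in Q91 and 8.83, 8.84 and 9.20 in Q111, against 9.49 to 10.27 in control. All arrays of Q20, Q91 and Q111 lay below every control array, and those of Q50 spread over the control range. Tet2 differed by -1.25 in Q20 (limma adjusted p = 0.000474), -1.27 in Q91 (0.000379) and -1.01 in Q111 (0.00221), with an SE of 0.22, or 42.1%, 41.5% and 49.6% of the control level. Q50 differed by -0.06, with an interval from -0.52 to 0.41 (adjusted p = 0.906). The order from low to high was Q91, Q20, Q111, Q50, control and knock-out, and Q111 and Q50 were the only neighbours without overlap. A second probe set, 1438781_at, was lower and called in Q20 (-1.02) and Q91 (-1.47), and gave -0.87 in Q111 (adjusted p = 0.077) and 0.38 in Q50.

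Tet1, the TET enzyme that is abundant in embryonic stem cells, passed no test. On the knock-out arrays its lowest, median and highest log2 values were 12.75, 12.91 and 13.11, against 12.57, 12.82 and 12.93 in control. Values in the lines were 12.68, 12.51 and 13.08 in Q20, 13.17, 13.08 and 13.26 in Q50, 12.28, 12.52 and 13.22 in Q91 and 12.68, 12.63 and 12.51 in Q111. All 3 Q50 arrays lay above all control arrays, while every other group overlapped control. The Q50 difference of 0.39 (SE 0.15) had a limma adjusted p of 0.116, and the others ran from -0.18 in Q111 to 0.13 in the knock-out. Its probe sets did not move alike: in Q50 the second, 1429448_s_at, differed by 0.94 (adjusted p = 0.115) and the third, 1419896_at, by 0.03.

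**Figure D3:**
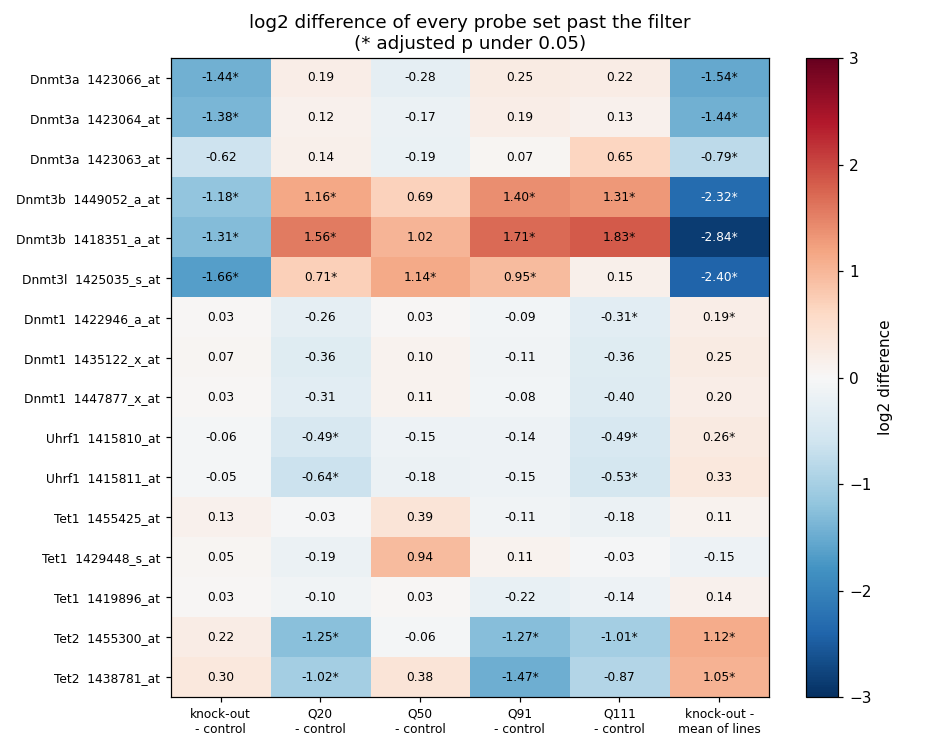
Log2 difference for each of the 16 probe sets that entered the tests (rows, grouped by gene) in the 5 comparisons with control and in the knock-out against the mean of the 4 knock-in lines (columns). Colour runs from blue (lower) to red (higher) and an asterisk marks a limma adjusted p under 0.05. The Dnmt3b probe sets stand at -1.18 and -1.31 in the knock-out and at 1.31 and 1.83 in Q111.

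Counted by line, 4 of 7 genes were called in Q20, 2 higher and 2 lower, where 26.7% of all genes tested were called, 16.3% higher and 10.4% lower. In Q50 only Dnmt3l was called, 1 of 7 and higher, against 7.5% of all genes (5.08% higher and 2.42% lower). Q91 had 3 of 7, 2 higher and 1 lower, against 24.6% (13.3% higher and 11.3% lower). Q111 had 4 of 7, 1 higher and 3 lower, against 27.4% (16.4% higher and 11.1% lower). The median difference of the 7 genes ran from -0.18 in Q111 to 0.03 in Q50, against -0.01 and 0.03 over all genes tested, and with calls in both directions it is the value of a single middle gene.

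Set against the mean of the 4 knock-in lines, the knock-out arrays were called for 6 of 7 genes, 3 higher and 3 lower. This comparison called 49.1% of all genes tested, 21.2% higher and 27.9% lower. Dnmt3l differed by -2.40 (SE 0.11, limma adjusted p = 3.58e-12) and Dnmt3b by -2.32 (SE 0.15, adjusted p = 6.37e-10), to 19.0% and 20.1% of the level in the lines. No knock-out array of either gene reached any of the 12 knock-in arrays. Dnmt3a differed by -1.54, and here Q50 replicate 3 fell inside the knock-out range. Tet2 was higher in the knock-out by 1.12 (SE 0.16, adjusted p = 8.08e-06). Uhrf1 (0.26, adjusted p = 0.0453) and Dnmt1 (0.19, adjusted p = 0.0461) were higher just inside the threshold, and the Uhrf1 call was lost in 14 of 26 alternative settings and the Dnmt1 call in 17.

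Repeat length gave no trend that passed the test for any of the 7 genes. A straight line of log2 expression against repeats, fitted over the 12 knock-in arrays, was called for 0 of 7 genes and for 0.0526% of all genes tested by limma, and 0 of 7 had an unadjusted p under 0.05 (4.44% of all genes tested). Per 100 repeats the slopes ran from -0.56 for Dnmt3l (interval -1.24 to 0.12) to 0.40 for Dnmt3b (-0.19 to 1.00). Line and repeat number cannot be told apart, since each line has 1 tract length apart from Q50 replicate 3.

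The 4 lines were also compared with each other with no order assumed. A limma F-test called 0 of 7 genes after adjustment, against 0.116% of all genes tested. Without adjustment, Dnmt3l, Tet2, Uhrf1 and Dnmt3b, 4 of 7, lay under 0.05, against 14.6% of all genes tested. The smallest adjusted p, that of Dnmt3l, was 0.170. It was 0.0225 without Q91 replicate 1, the array whose Dnmt3l value of 12.93 lay below the other Q91 arrays.

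**Figure D4:**
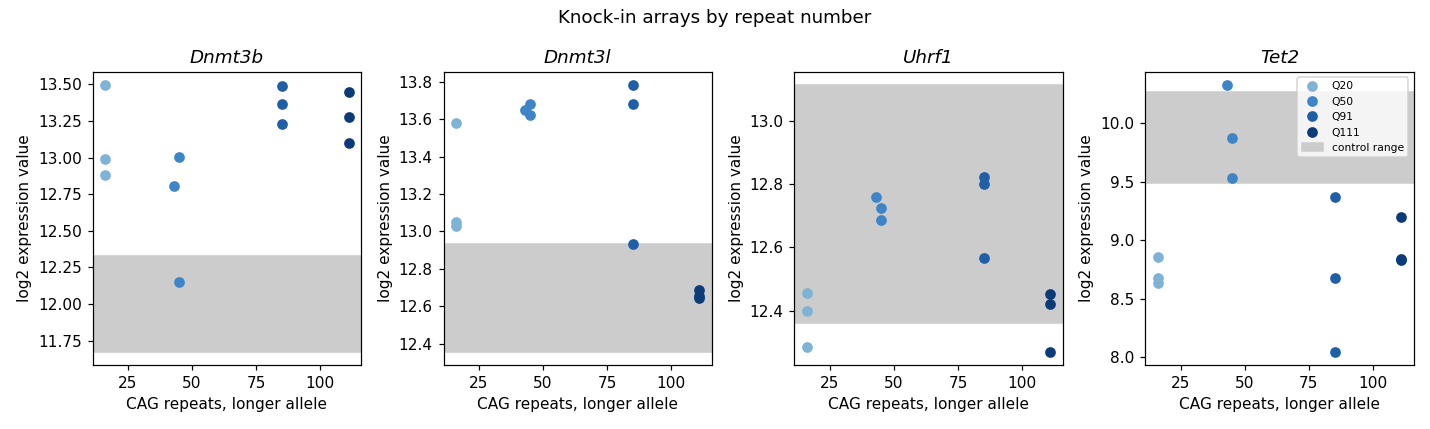
Log2 expression of Dnmt3b, Dnmt3l, Uhrf1 and Tet2 on the 12 knock-in arrays against the number of CAG repeats of the longer allele, with the range of the 6 control arrays in grey. Dnmt3l is lowest in Q111, Tet2 is highest in Q50, and neither runs steadily with the repeat number.

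Cell state markers were read beside these genes. Beside the counts of calls for this and the next marker lists stand the shares of all genes tested. These were 7.55% higher and 8.81% lower in the knock-out, 16.3% and 10.4% in Q20, and 5.08% and 2.42% in Q50. In Q91 they were 13.3% and 11.3%, and in Q111 16.4% and 11.1%. The pluripotency list (Pou5f1, Sox2, Nanog and others) had 8 of 8 markers at a mean log2 value of 5 or more in every group, and 0 were higher and 1 lower in the knock-out, 1 and 3 in Q20, 1 and 0 in Q50, 1 and 4 in Q91, and 0 and 3 in Q111. Sox2, Zfp42 and Utf1 were lower in Q20, Q91 and Q111, and Nanog was lower in Q91 (-0.69, limma adjusted p = 0.0251). Lin28a was lower in the knock-out (-0.58, 2.5e-05) and higher in Q20 by 0.27 and in Q91 by 0.35. Among the 10 genes of the naive state, 1 was higher and 0 lower in the knock-out, 1 and 7 in Q20, 0 and 3 in Q50, 0 and 6 in Q91, and 1 and 8 in Q111. Among 9 tested of 10 primed epiblast genes, 0 were higher and 2 lower in the knock-out, and 8, 4, 6 and 9 were higher and 0 lower in Q20, Q50, Q91 and Q111. Fgf5 and Zic2 averaged 2.08 and 3.79 in control, under the value of 5 at which signal was told from background. Such genes could hardly be called lower in a line. Pou3f1, an early epiblast transcription factor, was at a mean of 5.60 in the knock-out, 9.55 in Q20, 8.61 in Q50, 9.94 in Q91 and 9.78 in Q111, against 7.13 in control. The summed linear signal of the primed list ran from 918 to 1309 on knock-out arrays, against 1564 to 2012 on control arrays. In the lines it was 6546 to 15434 (Q20), 2290 to 9589 (Q50), 9176 to 27419 (Q91) and 13350 to 14519 (Q111), all above control. Such sums follow the brightest gene of a list. In every line that was Krt18, with log2 means from 10.75 in Q50 to 13.13 in Q91. The naive list summed to 36737 to 47983 on knock-out arrays, 16518 to 22566 (Q20), 19986 to 35272 (Q50), 16636 to 19125 (Q91) and 15651 to 25903 (Q111), against 35074 to 39159 on control arrays. The part of cell state in the differences of Dnmt3b, Dnmt3l and Tet2 was not tested.

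Genes of feeder fibroblasts, on which such cells are often grown, were read in the same way. Of 18 listed, 11 were tested, and 0 were higher and 1 lower in the knock-out, 7 higher and 0 lower in each of Q20, Q91 and Q111, and 4 higher and 0 lower in Q50. The summed signal of the list was 10174 to 16521 on knock-out arrays, 17999 to 38160 (Q20), 10232 to 18441 (Q50), 21777 to 58437 (Q91) and 24653 to 25079 (Q111), against 13067 to 17428 on control arrays. In knock-out and control the brightest genes in this sum were Fn1 (log2 means of 12.79 and 12.72) and Vim (12.29 and 12.90). Of the tested genes of this list, Col1a1 was called higher in Q20, Q91 and Q111, and not in Q50. Tagln was called higher in all 4 lines. Control means of both genes, 3.73 and 4.69, lay under the value of 5 at which signal was told from background, so no sizes are given. Those of Thbs1 (3.20), Col1a2 (2.68) and Col5a2 (2.76) lay there too. Genes this low in control could hardly be called lower in a line. Fn1, Pdgfrb and Thy1 were called in no line. Among the genes that did not pass the filter, Dcn, Lum, Postn and S100a4 read at most 3.18 in log2 on every array. Col3a1 read at most 4.38 and Twist1 at most 4.02, and all 6 lay under the value of 5 at which signal was told from background. Means of Col3a1 and Twist1 were higher in Q91 than in any other group, and for Twist1 the Q91 mean was 3.57, against 3.12 in control. The part of fibroblast RNA in the line differences was not tested.

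Of 7 trophoblast markers 3 were tested, and 0 were higher in the knock-out, 2 in each of Q20, Q91 and Q111 and 1 in Q50, with 0 lower in each. Krt8, a keratin of simple epithelia, was higher by 4.26 in Q20, 2.62 in Q50, 4.99 in Q91 and 4.87 in Q111 (limma adjusted p = 0.000558, 0.0421, 0.000127 and 0.000143). Eomes, a transcription factor of trophoblast and early mesoderm, was higher by 1.06 in Q20, 1.14 in Q91 and 1.62 in Q111 (limma adjusted p = 0.0155, 0.0111 and 0.000662). The summed signal of the list was 2246 to 3529 on knock-out arrays, 3685 to 12911 (Q20), 2331 to 8118 (Q50), 5936 to 23926 (Q91) and 8472 to 9661 (Q111), against 2424 to 3461 on control arrays. Means of the defining markers Cdx2, Elf5 and Hand1 were at most 3.16 in every group. Of 7 primitive endoderm markers 1 was tested, Dab2, and it was not called in any of these comparisons. The part of trophoblast RNA in the line differences was not tested.

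The genes whose log2 values were most like those of each enzyme across the 24 arrays are given by Pearson r, as a description over arrays that fall into the same 6 groups. Dnmt3b was closest to Tcfl5 (0.97), Tmem167 (0.96) and Klhl13 (0.95). Dnmt3l was closest to Sfmbt2 (0.93), Wdr3 (0.91) and Gtpbp4 (0.91), and Dnmt3a to Fmr1nb (0.88), Rragd (0.87) and Znf41-ps (0.86). Tet2 was closest to Grtp1 (0.92), Usp1 (0.92) and Zbtb43 (0.91). Values for Dnmt1, Uhrf1 and Tet1 were lower: Atxn7l3b, Slc25a36 and B230219D22Rik (0.85 to 0.86), Pcnx3, Syk and Elmo2 (0.82 to 0.85), and Odf2, Eif4a2 and Kif20b (0.77 to 0.80).

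The wider pathway was read from 7 lists of named genes, and the numbers are given as higher and lower calls in the knock-out, Q20, Q50, Q91 and Q111, each against control. Of all genes tested, 16.4% were called in the knock-out, 26.7% in Q20, 7.5% in Q50, 24.6% in Q91 and 27.4% in Q111. Counts near these shares say nothing particular about a list. Over these 5 comparisons the median difference of all genes tested lay between -0.02 in the knock-out and 0.03 in Q50. Maintenance partners, 7 of 7 tested, had 1 and 0, 1 and 1, 1 and 0, 0 and 0, and 1 and 3, with medians from -0.18 in Q20 to -0.02 in Q50. Pcna, the sliding clamp of replication, was higher in the knock-out by 0.24 (limma adjusted p = 0.0221) and lower in Q111 (-0.38, 0.00208). Dppa3, which binds Uhrf1 and limits maintenance methylation in mouse oocytes and embryos, was higher by 3.97 in Q20 (0.00885) and 3.11 in Q111 (0.0338). In Q50 and Q91 it differed by 2.59 and 2.26 without passing. The part of Dppa3 in the differences of Uhrf1 was not tested. Hells, a chromatin remodeller needed for normal methylation, was higher in Q50 by 0.34 (0.0499), and its partner Cdca7 was lower in Q20 (-0.36) and in Q111 (-0.34).

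Genes of recruitment and repression, 13 of 13 tested, had 0 and 1, 0 and 3, 2 and 0, 2 and 2, and 0 and 2, with medians from -0.12 in Q111 to 0.09 in Q50. Prdm14, which represses Dnmt3b in mouse embryonic stem cells and, like Dppa3, is also on the naive list, averaged 8.92 in the knock-out, 6.32 in Q20, 7.37 in Q50, 5.48 in Q91 and 6.89 in Q111, against 8.23 in control. It was lower in Q20 (-1.91, limma adjusted p = 0.00469), in Q91 (-2.75, 0.000247) and in Q111 (-1.34, 0.0365). In Q50 it differed by -0.86 and in the knock-out by 0.69, neither past the test. The part of Prdm14 in the differences of Dnmt3b was not tested. The histone methyltransferases Ehmt1 and Ehmt2 did not move together. Ehmt1 was higher in Q50 by 0.42 and in Q91 by 0.58, and Ehmt2 was lower in Q20 (-0.53) and in Q111 (-0.67). Hdac1, a histone deacetylase, was higher in Q50 by 0.31 and in Q91 by 0.23.

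Readers of methylated DNA, 7 tested of 10 listed, had 1 and 1, 0 and 1, 0 and 0, 1 and 0, and 0 and 0, with medians from -0.31 in Q111 to 0.06 in the knock-out. Zbtb38, a zinc finger protein that binds methylated DNA, was higher in the knock-out by 0.76 (limma adjusted p = 0.00763), and Mbd3, a subunit of the NuRD repressor complex, was lower (-0.32, 0.0377). Zbtb33, or Kaiso, was higher in Q91 by 0.69 and Mbd1 lower in Q20 (-0.77).

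TET partners and the enzymes that supply their cosubstrate, 10 tested of 12 listed, had 3 and 0, 2 and 1, 2 and 0, 2 and 0, and 1 and 0, with medians from 0.01 in Q20 to 0.25 in the knock-out. The 3 higher genes in the knock-out were Idh1, by 0.87 (limma adjusted p = 0.00156), Idh2, by 0.86 (0.00226), and Ogt, by 0.53 (0.000436). Idh1 and Idh2 make alpha-ketoglutarate, which TET enzymes consume, and Ogt is a glycosyltransferase that binds TET proteins. Ogt was also higher in Q50 by 0.41 (0.0203). Cxxc5, a zinc finger protein that binds unmethylated CG sites, was lower in Q20 (-0.71). Tet3 did not pass the filter.

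Base excision repair, which finishes the work of Tdg, had 9 genes tested of 10 listed, with 1 and 0, 1 and 1, 0 and 0, 0 and 4, and 1 and 2, with medians from -0.35 in Q111 to 0.01 in the knock-out. Apex1, the endonuclease that cuts at abasic sites, was higher in the knock-out by 0.62 (limma adjusted p = 0.0018) and lower in Q111 (-0.55, 0.00884). It differed by -0.34 in Q20, -0.09 in Q50 and -0.21 in Q91, none past the test. Lig3, a DNA ligase, was higher in Q20 by 0.70 (0.00137) and in Q111 by 0.74 (0.000799). Neil1, a glycosylase, was lower in Q91 (-0.64) and in Q111 (-0.39), and Parp1, which senses strand breaks, was lower in Q20 (-0.73) and in Q91 (-0.83).

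The methyl donor cycle, 9 tested of 11 listed, had 0 and 1, 3 and 2, 0 and 1, 0 and 1, and 2 and 3, with medians from -0.11 in the knock-out to 0.14 in Q111. Shmt2, which feeds carbon from serine into the cycle, was lower in every line, at -0.72 in Q20, -0.51 in Q50, -0.91 in Q91 and -0.64 in Q111 (limma adjusted p = 0.000877, 0.0264, 9.31e-05 and 0.0019), and differed by -0.13 in the knock-out. Mtrr, which reactivates methionine synthase, was lower in the knock-out (-0.53, 0.00348) and higher in Q20 by 0.55 and in Q111 by 0.38. Mat2b, a regulatory subunit of the enzyme that makes the methyl donor, was higher in Q20 by 0.66 and in Q111 by 0.43. Mthfd1, a folate enzyme, was lower in Q111 (-0.37).

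Germline genes known to be silenced by promoter methylation in other tissues had 9 tested of 14 listed, with 0 and 4, 1 and 2, 0 and 0, 0 and 3, and 1 and 1, and the other 5 did not pass the filter. The 4 lower genes in the knock-out were Mael (-2.54, limma adjusted p = 0.000192), Tex19.1 (-1.83, 0.00086), Hormad1 (-1.04, 0.0105) and Mov10l1 (-0.91, 0.0133). Mael and Mov10l1 act in the piRNA pathway that restrains transposons in the male germline, Hormad1 in meiotic chromosome pairing, and Tex19.1 in transposon control. The median of the 9 was -1.04 in the knock-out and ran from -0.41 in Q20 to 0.37 in Q91 among the lines. Tex19.1 averaged 9.09 in the knock-out, 12.32 in Q20, 11.38 in Q50, 11.40 in Q91 and 12.41 in Q111, against 10.91 in control, and its rises of 1.40 in Q20 and 1.49 in Q111 were called. Mael averaged 5.81 in the knock-out, 7.93 in Q20, 8.95 in Q50, 9.06 in Q91 and 8.96 in Q111, against 8.34 in control. It was called in no line (limma adjusted p of 0.29 to 0.55). The lower calls in the lines were Stk31 in Q20 (-2.12) and Q91 (-1.63), Sycp3 in Q91 (-1.21), and Mov10l1 in Q20, Q91 and Q111. Mov10l1 means were at 3.42 to 4.94, under the value at which signal was told from background. Slopes on repeat number were called for none of the genes tested in these 7 lists.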

How the data were processed

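The authors deposited log2 expression values of 45101 probe sets for each of 24 arrays. Per the submitters' processing notes they used GCRMA, a method that corrects background by probe sequence, normalizes arrays to each other and summarises probes. The sources used here do not name a version. The values run from -0.18 to 17.19, from which the log2 scale was inferred. RNA was taken with Trizol and columns and labelled with biotin by in vitro transcription, per the labels' protocols.

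64 control probe sets were left out. A probe set was tested, blind to the groups, if at least 3 arrays read 5 or higher in log2, which kept 17980. Where a gene had several single-gene probe sets, that with the highest mean over the arrays stood for it, which gave 9504 genes. Genes were named from GEO's platform annotation. limma (version 3.58.1, R 4.3.3) fitted all 24 arrays with a separate mean for each group, leaving 18 residual degrees of freedom. Tests were two-sided, with Benjamini-Hochberg adjustment over the 17980 probe sets and a threshold of 0.05. Slope and F-test used the 12 knock-in arrays. The fit was tested on simulated data. Alternatives were quantile normalization, centring, other filters, a replicate block, the mean over probe sets, subsets of groups or replicates and leaving out each array. The members and lists were chosen with earlier results of these data known. All listed genes are named, with the 3 most correlated genes of each and up to 4 called genes of each further list with the smallest p. Stk31 and Sycp3 are named beyond these for their lower calls in the lines. The number of arrays limits the precision. Levels of different probe sets were not compared.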

Additional observations from a re-analysis of the deposited data

Results flagged for a closer look

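Within the groups of 6 arrays, 32 tests for a single array far from the others (Dixon's test) marked 8 values, where chance marks about 1 in 20. 3 of them were on control replicate 4. There Dnmt1 read 11.56 on probe set 1422946_a_at, against 11.81 on the nearest control array, and 9.95 on 1435122_x_at, against 10.43. Dnmt3l read 12.94 on the same array, against 12.49 on the nearest. 2 were on control replicate 5, where Tet1 read 11.17 on 1429448_s_at, against 10.50, and Tet2 read 7.41 on 1438781_at, against 8.27. Knock-out replicate 4 gave 2, with Dnmt3b at 7.25 on 1418351_a_at, against 8.53, and Dnmt1 at 8.01 on 1447877_x_at, against 7.73. On knock-out replicate 3, Tet1 read 10.57 on 1419896_at, against 10.35.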

How the results depend on the processing

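The calls of Dnmt3a, Dnmt3b and Dnmt3l in the knock-out held in all 12 fits that left out 1 knock-out or control array, with differences from -1.57 to -1.31, -1.25 to -1.07 and -1.69 to -1.58. Called probe sets over all genes, 2624 in the knock-out, 4539 in Q20, 1438 in Q50, 3988 in Q91, 4615 in Q111, 8398 for knock-out against the lines, 8 for the slope and 30 for the F-test, moved as follows. With controls and knock-outs limited to replicates 1 to 3 there were 838 in the knock-out, 529 in Q50 and 5098 against the lines, and with replicates 4 to 6 there were 1049, 1747 in Q20, 370 in Q50, 1762 in Q91 and 2095 in Q111. With only the 2 groups compared, Q50 had 601. The slope had 0 without a filter, 0 on the rank of the line, 3 without line Q20, and 0 without Q91 or without Q111, and the F-test had 14 without a filter. Without 1 array the knock-out had 1996 to 2275, Q20 had 2642 to 4395, Q50 had 739 to 2020, Q91 had 2204 to 4149, Q111 had 2989 to 4627, and there were 7607 to 8746 against the lines, 0 to 16 for the slope and 8 to 496 for the F-test.

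Of the 7 genes, Q20 had 2 called and Q111 had 1 with replicates 4 to 6 alone, and Q50 had 2 with a stricter filter, with the mean over probe sets and with replicates 1 to 3. Without 1 array the knock-out had 3 called, Q20 had 3 to 5, Q50 had 1 to 2, Q91 and Q111 had 3 to 4, and there were 4 to 6 against the lines, 0 for the slope and 0 to 1 for the F-test. With replicates 4 to 6 alone, the adjusted p was 0.0715 for Dnmt3l in Q20, 0.0641 for Tet2 in Q111, and 0.155 and 0.154 for Uhrf1 in Q20 and Q111. Dnmt1 in Q20 was called after quantile normalization (0.0397) and centring (0.013), and Tet1 in Q91 without Q91 replicate 3 (-0.38, 0.0487). The cause was not tested for these changes.

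Differences that changed sign were all uncalled. With replicates 1 to 3 these were Dnmt1 (-0.067) and Tet2 (-0.0086) in the knock-out, Dnmt3a (-0.056) and Tet1 (0.0096) in Q20, Dnmt1 in Q50 (-0.014) and Dnmt3a in Q111 (-0.024), and with replicates 4 to 6 Uhrf1 in the knock-out (0.30), Q50 (0.034) and Q91 (0.040) and Tet2 in Q50 (0.086). Dnmt1 in Q50 was -0.0030 after quantile normalization and -0.046 after centring, and Tet2 in Q50 was 0.16 as the mean over probe sets. Slopes turned for Dnmt1 without Q50 (0.0082) and without Q111 (0.21), Dnmt3l without Q111 (0.30), Tet2 without Q50 (0.19), and Uhrf1 after centring (-0.0015), without Q20 (-0.47) and without Q91 (-0.091). Leaving out 1 array spanned 0 for Dnmt1 (-0.017 to 0.060) and Uhrf1 (-0.16 to 0.025) in the knock-out, Dnmt3a (-0.051 to 0.32) and Tet1 (-0.18 to 0.095) in Q20, Dnmt1 (-0.020 to 0.074), Dnmt3a (-0.75 to 0.34) and Tet2 (-0.26 to 0.13) in Q50, Dnmt1 (-0.18 to 0.071), Dnmt3a (-0.050 to 0.65) and Tet1 (-0.38 to 0.089) in Q91, and the slopes of Dnmt1 (-0.19 to 0.018) and Uhrf1 (-0.092 to 0.12).

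The labels do not say that a replicate number marks a shared batch. Same-numbered knock-out and control arrays deviated from their group means with r of -0.41 to -0.26. Pairs of these arrays with differing numbers had r of -0.46 to 0.50. In all, 0 of 6 knock-out arrays correlated best with the control array of its own number. No line had all 3 same-numbered pairs over 0.1 with control. Among the lines, all 3 pairs were over 0.1 for Q111 and Q20 (0.39 to 0.46) and for Q91 and Q50 (0.20 to 0.41), but not for the other pairs of lines, as a hint from the data that numbers go together in part of the lines behind the slope and F-test. With the replicate number as a block, Q50 had 595 called probe sets, the slope 4 and the F-test 123, and Dnmt1 in Q111 (0.0874) and Dnmt1 (0.124) and Uhrf1 (0.106) against the lines were not called. Signal over background limited 3 of the 19 probe sets.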

Other observations

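Genes outside the members and the reasons for naming them were chosen here after their values were seen. Gadd45b, a stress-induced gene linked to active demethylation, was called higher in all 4 lines, least in Q50, by 1.08 (limma adjusted p = 0.0364), and most in Q91, by 1.72 (0.000466), and differed by 0.39 in the knock-out (0.332). Dppa3 ran from 3.35 to 7.52 in log2 on knock-out arrays and from 4.43 to 9.12 on control arrays. Both groups split by replicate number, in opposite directions. In the knock-out, replicates 1 to 3 all read higher than replicates 4 to 6, and in control they all read lower. The cause of this split was not tested. The 12 knock-in arrays lay between 8.49 and 10.94. Dppa3 is listed among naive genes, of which 7 of 10 were lower in Q20. Sfmbt2, a Polycomb-group gene, was the closest match to Dnmt3l. It ranged from 4.12 to 6.59 on knock-out arrays and from 9.71 to 11.92 on the knock-in arrays, against 7.85 to 9.76 on control arrays. Its knock-out and control arrays split by replicate number in the same directions as those of Dppa3 and Dnmt3b.

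Dazl, a germ cell RNA-binding protein that is silenced by promoter methylation in other tissues, averaged 4.62 in the knock-out, 6.72 in Q20, 6.57 in Q50, 6.61 in Q91 and 8.04 in Q111, against 6.12 in control. All 6 knock-out arrays read 4.27 to 4.94, under the value of 5 at which signal was told from background, so no size is given for the difference, which did not pass the test (limma adjusted p = 0.121). Q111 arrays ranged from 6.89 to 10.17, and the difference of 1.92 there was not called either (adjusted p = 0.0755).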
